A study of Mus musculus with 24 samples.

Results

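Sacral and lumbar dorsal root ganglia (DRG) of adult female mice were compared by RNA-seq in 14 of the 24 samples of the series, taken by the sex and spinal region in the sample labels. Each sample was the DRG of 1 spinal level from 1 mouse: 7 samples held lumbar ganglia (L4 and L5) and 7 held sacral ganglia, which in this design are the ganglia of L6 and S1. All the mice were C57Bl6 females of 6-8 weeks with no transgene and no treatment, and the nerve roots had been cut off the ganglia. By the numbers in the sample titles there were 8 females, of which 6 (mice 11, 12, 19, 21, 22 and 23) gave both levels, mouse 20 gave lumbar DRG alone and mouse 13 sacral DRG alone. The labels divide the samples into batch 1 (2 lumbar and 3 sacral, mice 11 to 13) and batch 2 (5 lumbar and 4 sacral, mice 19 to 23). Each batch has both levels, so the level difference was measured in each and the 2 estimates were set against each other. The stage of the estrous cycle is not given in the sources used here. The 10 male samples, all of batch 2, were used for the estimate of the spread and for a comparison at the end.

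The DRG hold the cell bodies of primary sensory neurons, wrapped by satellite glia, with their axons ensheathed by myelinating or non-myelinating Schwann cells. The L4 and L5 ganglia supply mainly the hindlimb, with many large myelinated neurons for touch and muscle sense. The ganglia of the lumbosacral junction also supply the bladder, distal bowel and reproductive tract through pelvic and pudendal nerves, and visceral afferents are mostly small peptidergic neurons with thin or no myelin. The question of the comparison was which genes separate these levels in females.

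Values are log2 RPKM, a level on a log2 scale corrected for gene length and library size, and a level difference is sacral minus lumbar on that scale, so that 1 stands for a 2-fold difference. Adjusted p-values are from limma with Benjamini-Hochberg adjustment over all 12655 genes tested, and a gene was called at an adjusted p of 0.05 or less. Because the difference between batches had been subtracted before deposit, a level in batch 1 cannot be set against a level in batch 2, whereas a level difference within a batch is unaffected by that step. Levels over all 7 samples are given in that sense. A p-value for the difference between batches (batch 2 minus batch 1) is unadjusted unless named otherwise.

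Effective library size was 27.59 to 37.38 M reads in batch 1 and 34.82 to 42.03 M in batch 2. Mitochondrial transcripts took 27.94 to 35.88% of the total signal in batch 1 and 26.29 to 43.42% in batch 2. The highest share was in lumbar DRG of mouse 22. These shares were computed from the batch-corrected values and are not exact shares of reads. The ganglia carried the markers of their label: the mean level of 9 pan-neuronal sensory genes (among them Avil, Isl1 and Pou4f1) lay between 5.72 and 6.24 in all 14 samples, and that of 7 satellite glial genes between 4.35 and 4.76. Of 8 autonomic neuron markers 4 had a value in any sample, and none was abundant enough to be tested. Dbh, the enzyme that makes noradrenaline, was blank in 7 of 7 lumbar and 6 of 7 sacral samples, as was Npy. Phox2a was blank in 4 lumbar and 5 sacral samples. Slc6a2 was blank in 3 lumbar and 1 sacral samples and reached 0.87 in sacral DRG. Lumbar DRG of mouse 22 stood apart. It was the only female sample in which the oligodendrocyte genes Mog (1.75), Olig1 (0.45) and Olig2 (−1.95) were detected, and the astrocyte genes Slc1a2 (6.28) and Aqp4 (4.44) were high there. Without that sample 53 genes were called, 45 of them among the 57 called with it.

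Between sacral and lumbar DRG of females, 57 genes were called (0.45% of those tested), 36 upregulated in sacral (0.284%) and 21 upregulated in lumbar DRG (0.166%). Without adjustment, 1065 genes had a p under 0.05. Of the called genes 52 were protein coding, 37 changed more than 2-fold, and 51 differed in the same direction in all 6 paired mice. In 38 of them the 7 sacral samples did not overlap the 7 lumbar samples; over all genes, 0.387% had every sacral sample above every lumbar sample and 0.213% had every one below. The count depended on single samples: it was 21 without sacral DRG of mouse 23, 26 without sacral DRG of mouse 19 (21 higher and 5 lower) and 30 without lumbar DRG of mouse 11. In a fit of the paired mice, each mouse having its own term, 13 genes were called, all of them among the 57: Chrna3, Chrnb4, Cartpt, Negr1, Hoxd11, Tac1, Uts2d, Atp2b4, Mgat4a, 6330403K07Rik, Hapln4, Gm13883 and 1700040D17Rik. The other 44 missed the threshold in that fit. When the mean level of the myelinating Schwann cell markers in each sample was held as a covariate, 4 genes were called (Cartpt, Chrna3, Chrnb4 and Negr1). The same 4 were the only ones called under every alternative tried. Among the rises that lost the call with the covariate, some differences kept about their size and others shrank. The difference was 0.682 for Tac1 (0.683 without the covariate), 1.496 for Esr1 (1.461) and 2.337 for Hoxd11 (2.156). It was smaller for Gfra3 (0.701, against 1.002 without the covariate), Kcnk3 (0.991, 1.451) and Aqp1 (0.444, 0.675).

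Nicotinic acetylcholine receptors are ion channels of 5 subunits, opened by acetylcholine, and in autonomic and some sensory neurons the α3 and β4 subunits assemble into 1 channel. Chrna3 and Chrnb4, which encode these subunits, lie next to each other on the same strand (chr9:54859150-54874366 and chr9:54875963-54896351 in mm9, minus strand). Because they moved together, the 250 bases before the annotated start of each gene are shown (RefSeq sequence, GRCm38.p6, 5′ to 3′ on the strand of the gene, all in lower case since neither of the motifs searched was present).

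Chrna3: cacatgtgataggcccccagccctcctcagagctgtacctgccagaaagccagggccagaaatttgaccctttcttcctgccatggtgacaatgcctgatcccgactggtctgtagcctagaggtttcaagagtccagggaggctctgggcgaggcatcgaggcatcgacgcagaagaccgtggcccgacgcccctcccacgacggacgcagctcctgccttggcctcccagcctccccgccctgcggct
Chrnb4: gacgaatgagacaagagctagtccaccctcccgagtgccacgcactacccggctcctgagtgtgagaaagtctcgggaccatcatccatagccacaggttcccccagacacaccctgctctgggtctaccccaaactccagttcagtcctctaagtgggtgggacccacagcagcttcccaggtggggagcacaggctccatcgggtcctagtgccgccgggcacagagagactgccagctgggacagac

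The windows are chr9:55026563-55026812 and chr9:55048545-55048794, and 63.2 and 61.2% of their bases are G or C. In batch 1, Chrna3 was at 2.30 and 2.74 in the lumbar DRG of mice 11 and 12, and at 4.82, 5.17 and 5.67 in the sacral DRG of mice 11, 12 and 13. In batch 2 it was at 2.20, 0.82, 2.72, 3.14 and 3.38 in the lumbar DRG of mice 19 to 23, and at 5.63, 4.82, 4.98 and 5.66 in the sacral DRG of mice 19, 21, 22 and 23. Every sacral sample was therefore above every lumbar sample. The level difference was 2.79 ± 0.32 (SE; limma adjusted p = 2.71e-05), a 6.90-fold rise with a 95% interval of 4.39 to 10.8. Within batch 1 it was 2.71 and within batch 2 it was 2.83, and the difference between the batches was 0.12 (95% interval −1.27 to 1.52).

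Chrnb4 followed the same pattern, from 1.79 to 3.64 in lumbar (median 2.57) and from 4.92 to 6.02 in sacral DRG (median 5.25), with no overlap. It rose by 2.77 ± 0.28 (adjusted p = 6.29e-06), with differences of 2.55 in batch 1 and 2.89 in batch 2. Chrnb3, which encodes an accessory subunit, was at 0.94 to 2.35 in lumbar and 2.84 to 3.89 in sacral DRG and rose by 1.58 ± 0.30 (adjusted p = 0.012), by 1.84 in batch 1 and 1.44 in batch 2. These were the 3 called genes among 8 tested of 16 nicotinic subunits, and the median difference of the 8 was 0.18 (0.00407 over all genes tested). Chrna7, which forms channels by itself, had a difference of −0.54 (adjusted p = 0.652), with 4 of 6 pairs lower in sacral, and the muscle-type subunit gene Chrnb1 one of −0.84 (adjusted p = 0.623). Chrna6 and Chrnb2 were at 0.18 each.

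Receptors for other transmitters held single members that rose. GABA-A receptors are chloride channels opened by GABA, and 2 of 9 tested subunits (of 18) were called: Gabrg3, from −2.39 to −0.25 in lumbar to 0.74 to 1.83 in sacral DRG (2.48 ± 0.38, adjusted p = 0.00193), and Gabra3, from −0.12 to 1.40 to 1.82 to 2.45 (1.25 ± 0.23, adjusted p = 0.00962). Neither gene overlapped between levels. The batch differences were 2.25 and 2.61 for Gabrg3 and 1.15 and 1.30 for Gabra3. The subunit genes Gabra2 (median 2.54 in lumbar, 2.34 in sacral) and Gabrb2 (1.62, 1.03) had differences of −0.31 and −0.49 and were not called. Among 12 tested ionotropic glutamate receptor subunits of 18, only Grin3a was called, an NMDA receptor subunit gene at 0.35 to 1.12 in lumbar and 1.60 to 1.99 in sacral DRG (1.14 ± 0.21, adjusted p = 0.0105), with 1.16 in batch 1 and 1.13 in batch 2. Neto2, an auxiliary protein of kainate receptors, rose by 0.92 ± 0.19 (adjusted p = 0.0242) and Cnr1, the CB1 cannabinoid receptor, by 1.04 ± 0.19 (adjusted p = 0.00962), both with every sacral sample above every lumbar sample. In the set of ligand-gated channels curated for the study, 6 of 41 tested genes were called and all 6 were the receptor subunits given above. The set was chosen in the study of these samples and is not independent evidence of a direction.

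Neuropeptide precursors are cut into peptides that sensory neurons release at both ends of their axons. Of 12 tested precursors (of 23), 4 were upregulated in sacral DRG (Cartpt, Uts2d, Adcyap1 and Tac1) and none in lumbar, and the median of the 12 was 0.52 (0.64 in batch 1, 0.46 in batch 2). Cartpt encodes the precursor of cocaine- and amphetamine-regulated transcript peptides, and Scg2 encodes secretogranin II, a protein of dense-core vesicles. The 250 bases before their starts are shown because, of the 39 called genes with a promoter in the table, these 2 held a full cAMP response element, the CREB binding motif TGACGTCA (in capitals; RefSeq sequence, GRCm38.p6, strand of the gene).

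Cartpt: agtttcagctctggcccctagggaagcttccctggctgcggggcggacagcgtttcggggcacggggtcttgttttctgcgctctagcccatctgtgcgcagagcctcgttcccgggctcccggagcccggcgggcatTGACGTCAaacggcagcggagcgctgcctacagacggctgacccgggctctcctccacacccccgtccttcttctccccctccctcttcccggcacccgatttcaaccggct
Scg2: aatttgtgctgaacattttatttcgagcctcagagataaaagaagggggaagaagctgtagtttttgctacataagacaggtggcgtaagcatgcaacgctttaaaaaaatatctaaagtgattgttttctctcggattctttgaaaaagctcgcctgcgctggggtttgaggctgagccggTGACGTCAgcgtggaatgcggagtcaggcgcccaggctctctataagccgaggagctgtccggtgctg

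The windows are chr13:99900684-99900933 and chr1:79440027-79440276, both minus strand, and the motif spans bases −112 to −105 of Cartpt and −68 to −61 of Scg2, counted from the annotated start. The motif reads the same on both strands. It was present in 508 of 32851 such windows (1.55%). The estrogen response element (GGTCA, 3 free bases and TGACC, which also reads the same on both strands and overlapped no cAMP response element shown) was in 21 windows (0.0639%) and in none of the 39 called genes with a window. A match of letters is a description of the window and not a binding site.

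In batch 1, Cartpt was at 1.00 and 1.73 in lumbar and at 4.18, 4.01 and 3.97 in sacral DRG. In batch 2 it was at 2.12, 1.96, 1.94, 1.48 and −0.25 in lumbar and at 4.70, 3.67, 3.91 and 3.65 in sacral DRG, so that no sample of one level reached the other. The rise was 2.58 ± 0.32 (adjusted p = 7.79e-05; 6.00-fold, 95% interval 3.79 to 9.50), and 2.69 and 2.53 in the 2 batches (chr13:100668439-100670638 in mm9). Scg2 was an abundant transcript with little spread, at 6.38 to 6.84 in lumbar and 6.97 to 7.49 in sacral DRG, and rose by 0.64 ± 0.10 (adjusted p = 0.00333), 0.56 in batch 1 and 0.68 in batch 2.

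Uts2d, the precursor of a urotensin II-related peptide, had the largest rise and the least certain size. In batch 1 it was at −0.23 and −0.15 in lumbar and at 2.21, 2.17 and 1.91 in sacral DRG. In batch 2 the sacral samples were at 4.44, 2.09, 2.82 and 3.15, whereas the lumbar samples of mice 20 and 21 were blank and those of mice 19, 22 and 23 were at −2.0, 0.70 and −3.66. Sacral samples were above all lumbar samples, but the fitted difference of 5.06 ± 0.93 (adjusted p = 0.00962) has no exact size, since a blank was set to the level of 0.5 reads. It was 2.43 with 1 added to each RPKM. Its level difference was 2.28 in batch 1 and 6.56 in batch 2, and it was the 1 called gene for which the batches differed at an unadjusted p under 0.05 (4.28, 95% interval 0.60 to 7.96; limma adjusted p = 1). All blanks of Uts2d were in batch 2, so the 6.56 and the 4.28 depend on the level set for a blank.

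Peptidergic nociceptors respond to heat and irritants and release substance P and CGRP. Of 11 genes tested, 9 had a positive difference and 4 were called, with a median of 0.68 (0.81 in batch 1, 0.62 in batch 2). Tac1, the substance P precursor, was at 6.74 to 7.14 in lumbar and 7.44 to 8.06 in sacral DRG without overlap and rose by 0.68 ± 0.12 (adjusted p = 0.00599). Adcyap1, the precursor of the peptide PACAP, was at 3.73 to 4.80 and 4.88 to 5.67 and rose by 1.00 ± 0.20 (adjusted p = 0.0198). Trpv1, the capsaicin and heat receptor, was at 2.46 to 3.90 in lumbar and 3.64 to 4.97 in sacral DRG, higher in sacral in 6 of 6 pairs, and rose by 0.97 ± 0.22 (adjusted p = 0.0395). It was called in 14 of 30 alternatives.

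Gfra3, the artemin receptor subunit, rose by 1.00 ± 0.20 (adjusted p = 0.0203), higher in 5 of 6 pairs. All 4 differed at an unadjusted p under 0.05 in each batch, by 0.81, 1.05, 1.18 and 1.17 in batch 1 and by 0.62, 0.98, 0.87 and 0.91 in batch 2 for Tac1, Adcyap1, Trpv1 and Gfra3. Calca, the CGRP precursor and the most abundant gene of the list (median 8.28 in lumbar and 8.63 in sacral), was higher in 6 of 6 pairs by 0.36 but was not called (adjusted p = 0.249). Kit (0.67, adjusted p = 0.11) and Gpx3 (0.95, adjusted p = 0.0746) were not called either. None of 14 non-peptidergic nociceptor genes was called (median 0.0329; Mrgprd −0.01), nor any of 5 genes of C-fibre low-threshold mechanoreceptors (median 0.256; Th 0.49).

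**Figure D1:**
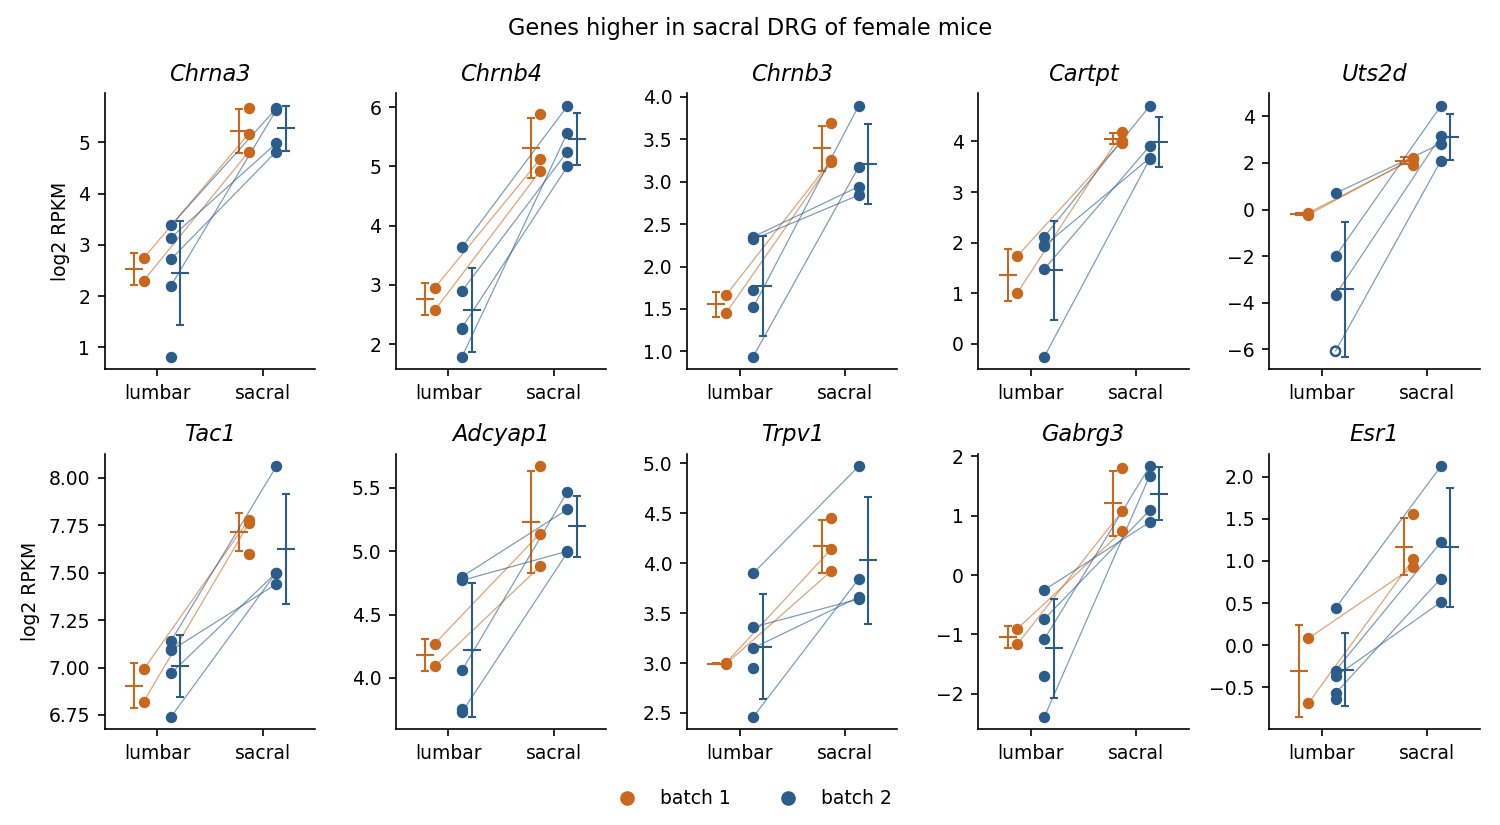
Log2 RPKM of 10 genes upregulated in sacral DRG, by level (horizontal axis) and batch (orange, batch 1; blue, batch 2); each point is a sample, thin lines join samples of 1 mouse, bars are the mean and SD of a level in a batch, and open points are blank cells set to 0.5 reads. Chrna3, Chrnb4, Chrnb3, Cartpt, Tac1, Adcyap1, Gabrg3, Esr1 and Uts2d show no overlap between levels and Trpv1 does, and the lumbar samples of Uts2d spread from −6.09 to 0.70.

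Potassium leak channels of the 2-pore family set the resting potential. Kcnk3 (TASK-1) was at −0.75 to 1.29 in lumbar and 1.34 to 2.56 in sacral DRG and rose by 1.45 ± 0.27 (adjusted p = 0.0115). Kcnk2 (TREK-1) was at 0.70 to 1.73 and 1.84 to 3.16 and rose by 1.34 ± 0.27 (adjusted p = 0.0198). Kcnk2 was the 1 called gene of 52 tested potassium channels in the set curated for the study, which does not list Kcnk3. Of its 12 tested TRP channels only Trpv1 was called, and none of its 16 calcium channels and 10 sodium channels was. Aqp1, a water channel found in small sensory neurons, was at 4.61 to 5.15 in lumbar and 5.17 to 5.88 in sacral DRG and rose by 0.67 ± 0.13 (adjusted p = 0.012), 0.39 in batch 1 and 0.83 in batch 2. Accn2 (Asic1), an acid-sensing channel, went the other way, from 2.96 to 3.48 in lumbar to 1.53 to 2.83 in sacral DRG (−0.97 ± 0.21, adjusted p = 0.0279).

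Steroid hormone receptors and enzymes held 2 called genes of 16 tested (of 19). Esr1, estrogen receptor α, was at −0.69 to 0.44 in lumbar (median −0.37) and 0.51 to 2.12 in sacral DRG (median 1.02), a low level without overlap. The rise was 1.46 ± 0.31 (adjusted p = 0.0284; 2.75-fold, 95% interval 1.76 to 4.31), with 1.48 in batch 1 and 1.45 in batch 2 (chr10:5340927-5734948 in mm9, minus strand). Srd5a2, a steroid 5α-reductase, was blank in 6 of 7 lumbar samples and in 1 of 7 sacral samples (mouse 22), and otherwise at −3.45 to 1.21 in sacral DRG. Its fitted difference of 3.58 (adjusted p = 0.0423) depends on the level set for a blank, and it was called in 10 of 29 alternatives. Pgr, the progesterone receptor (0.60, adjusted p = 0.859), and Prlr, the prolactin receptor (1.03, adjusted p = 0.28; higher in 6 of 6 pairs), were not called, and Esr2 was too low to be tested.

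Hox genes encode transcription factors whose expression domains along the body axis follow their order in 4 clusters, with higher numbers more caudal. Of 18 tested Hox genes (of 39), 9 were higher and 9 lower in sacral DRG, and 2 were called. Hoxd11 was at −1.17 to 0.99 in lumbar and 1.70 to 2.78 in sacral DRG, without overlap, and rose by 2.16 ± 0.36 (adjusted p = 0.00577), 2.40 in batch 1 and 2.03 in batch 2. Hoxc10 was at 2.35 to 4.07 and 4.02 to 5.08 and rose by 1.19 ± 0.25 (adjusted p = 0.0246), with 0.54 in batch 1 and 1.53 in batch 2 (difference 1.00, 95% interval −0.02 to 2.01). Gm20440 shares exon sequence on the same strand with Hoxd10 and Hoxd11, and Hoxc10 with Gm20398, so reads of each pair may have been lost or split.

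Gm20440 itself rose by 2.32 ± 0.50 (adjusted p = 0.0284). Hoxd10 differed by 2.33 (2.32 in batch 1, 2.33 in batch 2) with every pair higher but missed the threshold (adjusted p = 0.242). On the other side, Hoxb8 (−3.45), Hoxc8 (−2.98) and Hoxb9 (−2.64) had large negative differences, the first and last in 6 of 6 pairs, that were not called (adjusted p = 0.26, 0.312 and 0.129). Hoxb8 and Hoxc8 were each blank in 1 sacral sample, set to the level of 0.5 reads. For Hoxc8 the 6 sacral values measured were −2.11 to 2.30, and its difference was −1.73 with the blank left missing. Hoxb5 (−1.08) also missed the threshold (adjusted p = 0.068).

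**Figure D2:**
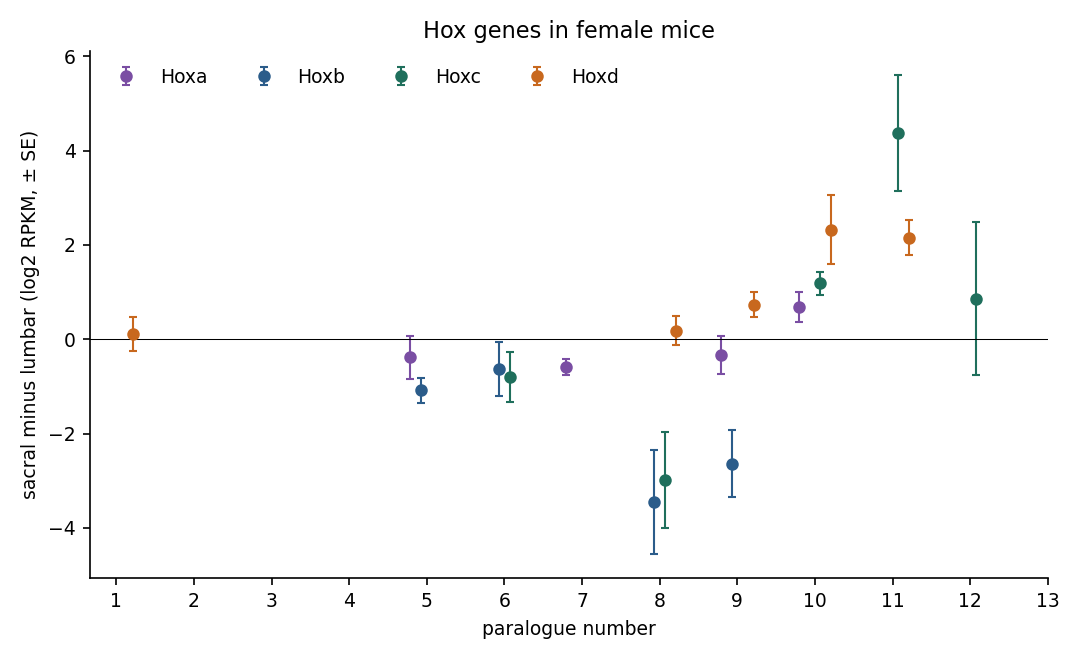
Level difference (sacral minus lumbar, log2 RPKM, ± SE from limma) of the 18 tested Hox genes against paralogue number, coloured by cluster. Hoxd10, Hoxd11 and Hoxc11 lie above 2 and Hoxb8, Hoxb9 and Hoxc8 below −2, with wide errors for all but Hoxd11 (Hoxc11 was blank in 3 lumbar samples and Hoxb8 and Hoxc8 in 1 sacral sample each), and only Hoxc10 and Hoxd11 were called.

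The remaining rises with the largest size were Negr1 and C1qtnf7. Negr1, a neuronal adhesion molecule, was at 1.84 to 3.38 in lumbar and 3.81 to 4.74 in sacral DRG, without overlap. It rose by 1.67 ± 0.20 (adjusted p = 5.40e-05; 3.18-fold, 95% interval 2.38 to 4.23), with 1.43 in batch 1 and 1.80 in batch 2. C1qtnf7, a secreted protein of the C1q and TNF family, was at −1.65 to 1.61 in lumbar and 1.89 to 2.85 in sacral DRG and rose by 2.07 ± 0.40 (adjusted p = 0.0139). Atp2b4, a plasma membrane calcium pump, rose by 1.03 ± 0.19 (adjusted p = 0.00962), by 1.03 in each batch.

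Further rises were smaller than that of Negr1. Mgat4a, a Golgi enzyme that branches N-glycans, was at 2.82 to 4.31 in lumbar and 4.23 to 4.79 in sacral DRG and rose by 0.98 ± 0.18 (adjusted p = 0.00962). Steap3, a ferrireductase of endosomes, was at 0.97 to 1.92 and 1.94 to 3.67, without overlap, and rose by 1.24 ± 0.25 (adjusted p = 0.0193). S100a11, a small calcium-binding protein, was at 4.49 to 5.11 and 5.16 to 6.14, also without overlap, and rose by 0.81 ± 0.15 (adjusted p = 0.012), 0.82 in batch 1 and 0.81 in batch 2. The annexin gene Anxa5 had the smallest rise, 0.42 (adjusted p = 0.0477; 0.20 in batch 1 and 0.54 in batch 2), with levels of 7.19 to 7.60 and 7.66 to 8.14 that did not meet, and was called in 12 of 30 alternatives. Cyp1b1, a cytochrome P450 that hydroxylates estrogens, rose by 0.73 ± 0.14 (adjusted p = 0.0167) and Pcdh17, a protocadherin, by 0.77 ± 0.17 (adjusted p = 0.0395). The transcript 6330403K07Rik was abundant, at 4.50 to 5.24 in lumbar and 5.56 to 6.79 in sacral DRG, and rose by 1.14 ± 0.17 (adjusted p = 0.00124).

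The genes upregulated in lumbar DRG were led in abundance by those of peripheral myelin. In whole ganglia, fewer cells of a type and less RNA per cell cannot be told apart, and how much root and nerve remained on a ganglion was not measured. Mbp, myelin basic protein, was at 6.57 and 6.65 in lumbar and 5.81, 6.60 and 5.33 in sacral DRG of batch 1. In batch 2 it was at 6.62, 7.15, 7.31, 7.07 and 6.41 in lumbar and 5.96, 5.34, 6.15 and 5.20 in sacral DRG. It was lower in sacral in 6 of 6 pairs, and the levels overlapped only through sacral DRG of mouse 12. The fall was 1.06 on the log2 scale (SE 0.20, adjusted p = 0.012), with −0.70 in batch 1 and −1.25 in batch 2, and Mbp was called in 26 of 30 alternatives. Drp2, a dystrophin-related protein of the Schwann cell membrane, went from 4.77 to 5.85 to 3.58 to 4.70 (−1.04 ± 0.22, adjusted p = 0.0217), without overlap.

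All 13 tested genes of 14 in the myelinating Schwann cell list had a negative difference and 3 were called, with a median of −1.06. The median was −0.67 in batch 1 and −1.25 in batch 2, and no member differed between batches at an unadjusted p under 0.05. Members that were not called included Fa2h (−1.39, adjusted p = 0.107), Pmp22 (−0.71, adjusted p = 0.131) and Prx (−1.10, adjusted p = 0.153). The mean level of the list was 4.60 to 5.55 in lumbar and 3.0 to 4.67 in sacral DRG, lower in sacral in 6 of 6 pairs. The satellite glial list, in contrast, held no called gene and had a median of −0.0383.

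The mean level of that list was also held in the model as a score. Prrg3, a membrane protein with a Gla domain, went from 4.99 to 5.82 in lumbar to 3.79 to 4.70 in sacral DRG (−1.03 ± 0.18, adjusted p = 0.00599). Qk, an RNA-binding protein that myelinating glia use in splicing of myelin transcripts, went from 6.26 to 6.99 to 5.53 to 6.21 (−0.73 ± 0.15, adjusted p = 0.0193), and Cryab, a small heat shock protein, fell by 0.97 (SE 0.17, adjusted p = 0.0084). Utrn, the dystrophin relative utrophin, had the narrowest spread of the falls, at 5.30 to 5.52 in lumbar and 4.76 to 5.07 in sacral DRG, and differed by −0.50 in each batch (SE 0.10 over both, adjusted p = 0.0181). With the score held, none of the falls was called. The differences of Prrg3, Qk, Cryab and Utrn, which are not members of the list, were then −0.44, −0.25, −0.48 and −0.30 (adjusted p from 0.766 to 0.966). That of Cdh12 was −1.46 as before, and those of Hapln4 (−1.74), Accn2 (−1.12), Nefh (−0.72) and AI593442 (−0.77; −0.59 without the score, called in 14 of 30 alternatives) were larger in size than without the score. Mbp and Drp2 are members of the list, so their smaller differences with it held are set by its construction. The score moved with the level, and its part in the falls was not tested.

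Large myelinated neurons, which carry touch and muscle sense, were represented by 13 tested genes, 10 of them with a negative difference and 1 called. Nefh, the heavy neurofilament subunit, was at 7.67 to 8.16 in lumbar and 6.83 to 7.75 in sacral DRG, lower in 5 of 6 pairs. It fell by 0.58 (SE 0.12, adjusted p = 0.0181), by 0.82 in batch 1 and 0.46 in batch 2. Its partner Nefm (−0.60, adjusted p = 0.0586), the neurotrophin 3 receptor Ntrk3 (−0.43, adjusted p = 0.158), and the muscle afferent genes Pvalb (−2.04, adjusted p = 0.56) and Runx3 (−2.05, adjusted p = 0.467) were not called. Pvalb was at 1.73 to 4.0 in lumbar and −0.88 to 3.24 in sacral DRG, a wide overlap. The BDNF receptor gene Ntrk2 had the opposite sign (0.40, higher in 6 of 6 pairs, adjusted p = 0.192). The median of the list was −0.43, with −0.61 in batch 1 and −0.32 in batch 2.

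Further genes fell. Hapln4, a link protein of perineuronal matrix, went from 3.06 to 4.07 in lumbar to 0.20 to 2.80 in sacral DRG (−1.52 ± 0.32, adjusted p = 0.0269). Cdh12, a cadherin, went from 1.34 to 2.89 to −0.02 to 1.13 (−1.46 ± 0.30, adjusted p = 0.0207), by −1.49 in batch 1 and −1.45 in batch 2. Both were free of overlap. Nes, the intermediate filament nestin, fell by 1.32 (SE 0.27, adjusted p = 0.0217) and was at −0.45 with the Schwann cell covariate. The largest fall was that of 1700040D17Rik, from 1.17 to 3.35 in lumbar to −2.82 to 0.43 in sacral DRG (−3.12 ± 0.72, adjusted p = 0.0482), and it was called in 14 of 30 alternatives. The genes Gm13883 (−2.01 ± 0.43, adjusted p = 0.0279) and D430041D05Rik (−1.52 ± 0.29, adjusted p = 0.012) share exon sequence on opposite strands, and without stated strand use their reads cannot be told apart. Gm17035 (−0.52, adjusted p = 0.0424) overlaps Ndrg1 in the same way. Limch1 (−1.05, adjusted p = 0.0395), Arhgap19 (−0.99, adjusted p = 0.0303), Atp5e (−1.11, adjusted p = 0.0267) and the semaphorin Sema5a (−0.59, adjusted p = 0.044; called in 13 of 30 alternatives) also fell.

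**Figure D3:**
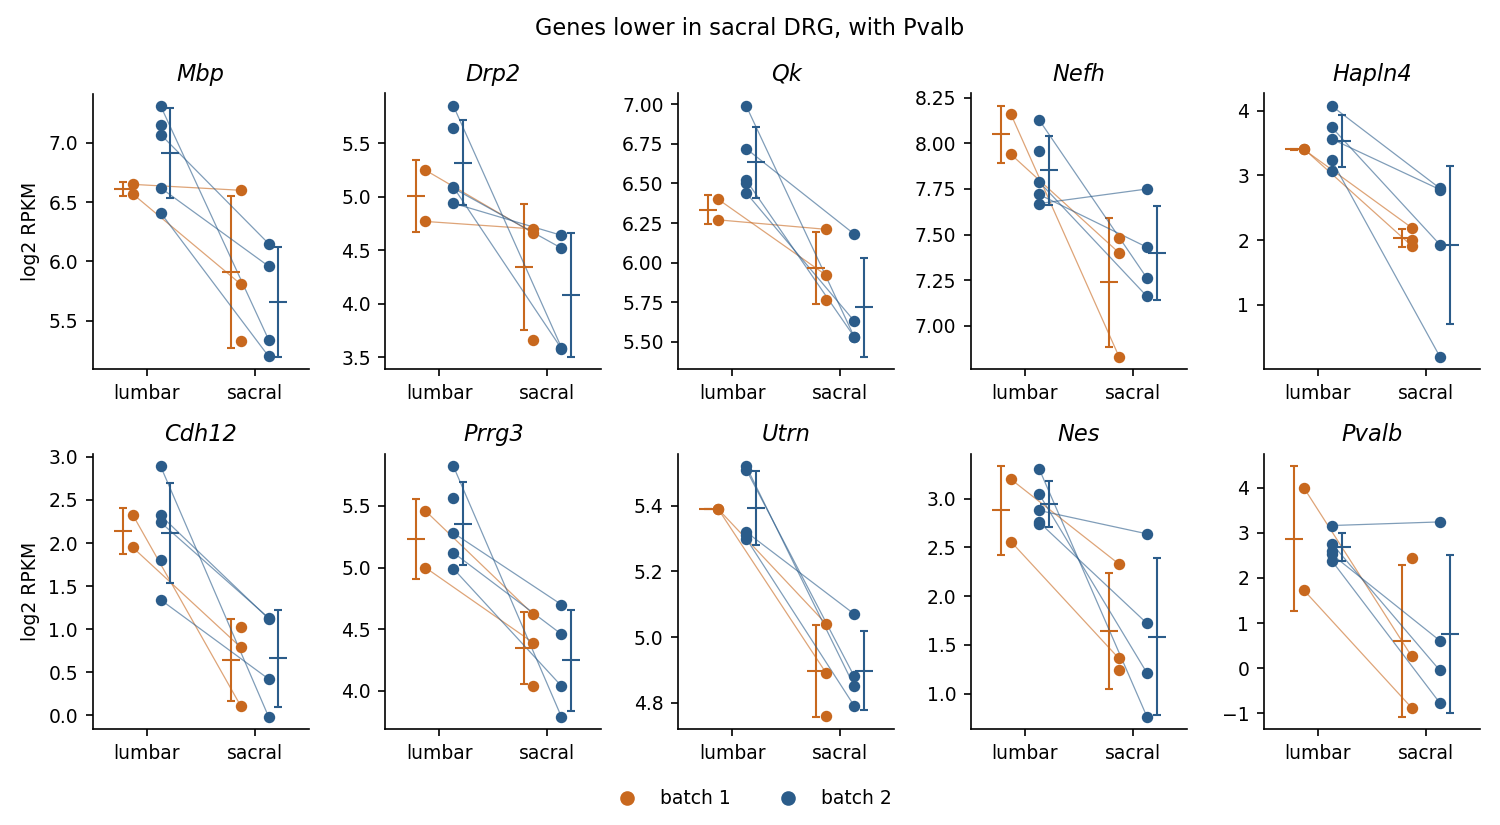
Log2 RPKM of 9 genes upregulated in lumbar DRG and of Pvalb, which was not called, by level (horizontal axis) and batch (orange, batch 1; blue, batch 2); points are samples, thin lines join samples of 1 mouse, and bars are the mean and SD of a level in a batch. Drp2, Qk, Hapln4, Cdh12, Prrg3 and Utrn show no overlap between levels, whereas Mbp, Nefh, Nes and Pvalb overlap, Pvalb from −0.88 to 3.24 in sacral DRG.

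The batches were then compared. Tested within batch 1, which had 5 samples, 2 genes were called (0.0158%), both of them globins, and within batch 2, which had 9, 40 genes were called (0.316%). At an unadjusted p under 0.05 the counts were 277 (2.19%) and 1404 (11.1%). No gene was called for a level difference that differed between batches (0%), while 420 (3.32%) had an unadjusted p under 0.05 and the smallest adjusted p was 0.112. The standard error of the difference between batches had a median of 0.56 over all genes and 0.45 over the called genes. For most genes a difference between batches of about 1 was therefore not detectable. Even the globin gene Hbb-b2, with a standard error of 0.56, differed by −3.19 between batches without being called (limma adjusted p = 0.112). The absence of calls therefore does not show that the batches agree. Replicates within a level and batch were closer together in batch 1 (median SD 0.26 over 12121 genes with a value in all samples, 3 degrees of freedom) than in batch 2 (0.48, 7 degrees of freedom). The fit used 1 spread for both. Leaving out any single batch 1 sample left no gene called within batch 1, and leaving out single batch 2 samples gave 1 to 4. Within batch 2 the count ran from 6 without sacral DRG of mouse 23 to 70 without that of mouse 22; it was 13 without sacral DRG of mouse 19, 20 without that of mouse 21, 18 and 23 without lumbar DRG of mice 20 and 21, and 20 to 24 without a sample of mice 11 and 12, which enter through the spread alone. With a term for each mouse it was 7, and 3 genes were called within batch 1, Chrna3 beside the globins.

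The 57 genes called over both batches had the same sign in each batch, and 44 of them had an unadjusted p under 0.05 within batch 1 and 57 within batch 2. Both batches entered that call, and batch 2 had more samples, so the shared sign and the ratio of sizes are in part set by the choice of genes. The median difference of the 36 rises was 1.16 in batch 1 and 1.24 in batch 2, and that of the 21 falls was −0.74 and −1.24. The size was smaller in batch 1 for 23 of the rises and 17 of the falls. Of the called genes only Uts2d differed between batches at an unadjusted p under 0.05, and Hoxc10 and Rprm, a cell cycle inhibitor, came nearest after it. Rprm differed by 0.55 in batch 1 and 1.74 in batch 2 (difference 1.19, 95% interval −0.03 to 2.42).

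Genes were also chosen in a fit of one batch and their sign was read in the other. In a fit of the batch 2 samples, males included, 20 genes were called for the female level difference. In batch 1, 18 of them had the same sign (52.3% over all genes). In a fit of the 5 batch 1 samples alone, 18 genes were called, and 9 had the same sign in batch 2. Called in each of these separate fits were 4 genes, Cartpt, Chrna3, Chrnb4 and Uts2d. Over all 12655 genes the sign was shared by 6615, and the differences in the batches correlated with a Pearson r of 0.18 and a Spearman rho of 0.12, a description across genes that share libraries and are not independent replicates.

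Of the 40 genes called within batch 2 in the fit of all samples, 25 were also called over both batches and 34 had the same sign in batch 1. The 6 with the opposite sign were Lims1 (−0.15 in batch 1, 0.64 in batch 2), Plagl1 (−0.07, 1.02) and Rgs5, a gene of pericytes (−0.09, 0.62), and the falls 4632415K11Rik (0.19, −6.22), Mdp1 (0.17, −2.28) and Pilra, an inhibitory receptor of myeloid cells (0.81, −5.79). In sacral DRG 4632415K11Rik was blank in 2 samples and Pilra in 3, so the size of their differences depends on the level set for a blank. Each of the 6 had an adjusted p of 1 for the difference between batches.

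**Figure D4:**
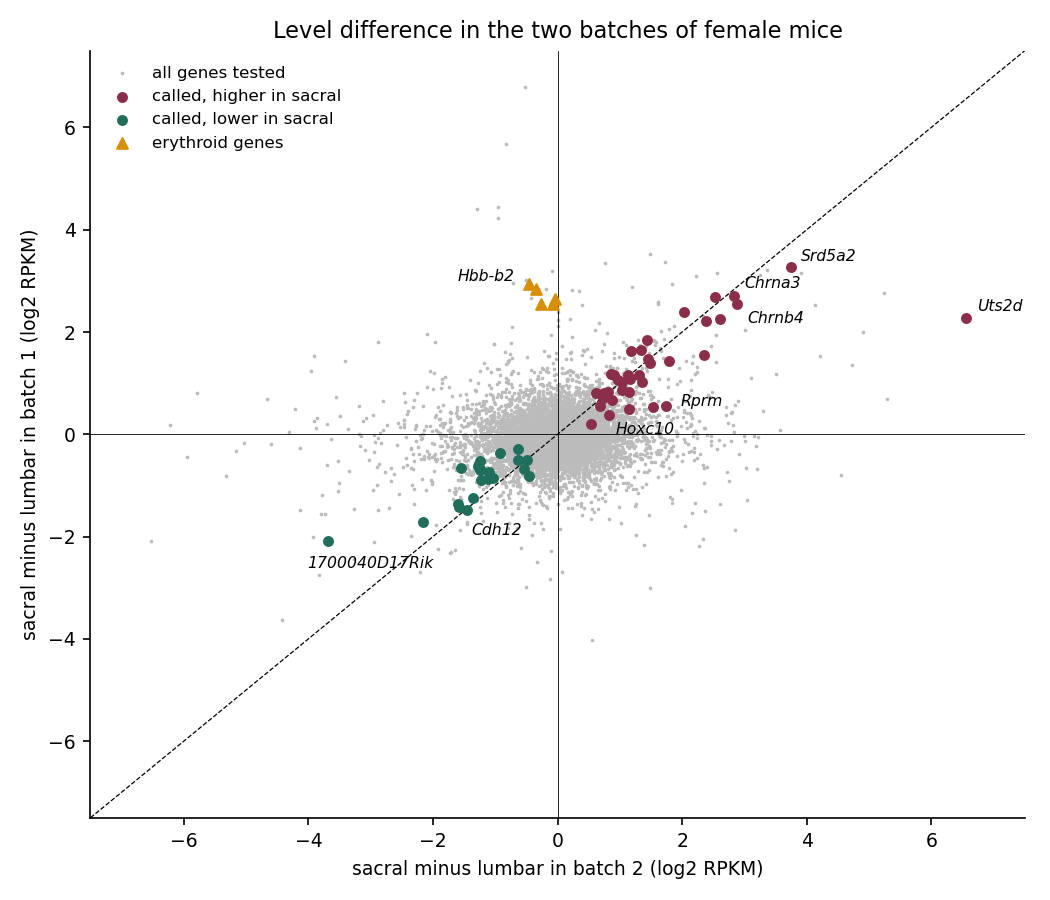
Level difference (sacral minus lumbar, log2 RPKM) of the 12655 genes tested in batch 2 (horizontal axis) and batch 1 (vertical axis); grey, all genes; red, called and upregulated in sacral; green, called and upregulated in lumbar; triangles, erythroid genes; dashed line, equal differences. All 57 called genes lie in the quadrants of shared sign, Chrna3 and Chrnb4 near the line, Uts2d at 6.56 against 2.28, and the 5 erythroid genes at 2.54 to 2.93 in batch 1 and −0.45 to −0.03 in batch 2.

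The 9 genes called in the fit of batch 1 alone with the opposite sign in batch 2 included Hba-a1, Hba-a2, Hbb-b1, Hbb-b2, Alas2, Slc25a37, Fam46c and Cxcr2. The first 4 are globins, Alas2 is an enzyme of heme synthesis in red cell precursors, and Cxcr2 is a chemokine receptor of neutrophils. Hbb-b2, a β-globin, was called within batch 1 (2.84, adjusted p = 0.0254) and differed by −0.34 in batch 2. The difference between batches was −3.19 (95% interval −4.35 to −2.02; unadjusted p = 8.88e-06, adjusted p = 0.112). Hba-a1, an α-globin, was the other call (2.64 in batch 1, adjusted p = 0.0329, and −0.03 in batch 2). The mean level of 5 erythroid genes was 1.91 to 2.19 in lumbar and 4.63 to 4.93 in sacral DRG of batch 1, and 2.96 to 4.77 and 2.59 to 3.91 in batch 2. Sacral samples of batch 1 were thus above both lumbar samples of that batch, while in batch 2 the levels overlapped. All 5 erythroid genes had an unadjusted p under 0.05 for the difference between batches, against 3.32% of all genes. Near-identical globin copies can split or lose reads when only unique alignments are kept, so single globin values are uncertain.

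Neither the neutrophil nor the macrophage list held a tested gene with an unadjusted p under 0.05 for the difference between batches. The 6 tested neutrophil genes were positive in both batches with medians of 2.17 in batch 1 and 0.73 in batch 2, and none was called over both (Mmp8, a neutrophil collagenase, 2.52, adjusted p = 0.366; blank in 1 lumbar sample). The 6 tested macrophage genes had medians of 0.70 and −0.36, with none of the same sign in both batches. Their part in the other level differences was not tested. The 2 tested skeletal muscle genes, Myh4 and Mylpf, were not called; their mean level was 2.97 to 5.58 in 4 samples (lumbar DRG of mice 11, 20 and 22 and sacral DRG of mouse 13) and −1.57 or lower in the other 10.

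**Figure D5:**
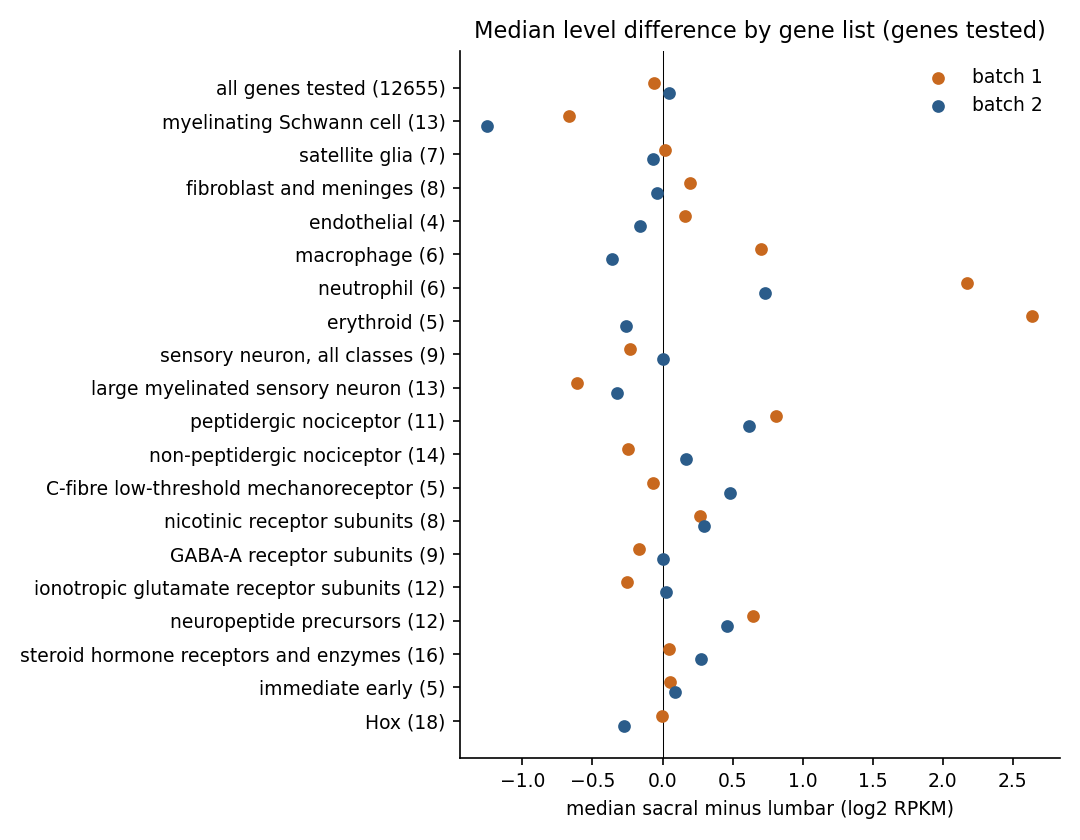
Median level difference (sacral minus lumbar, log2 RPKM) of each gene list with 4 or more tested members, in batch 1 (orange) and batch 2 (blue), with the number of tested members in parentheses. The erythroid list lies at 2.64 in batch 1 and −0.26 in batch 2 and the macrophage list at 0.70 and −0.36, whereas the Schwann cell (−0.67, −1.25) and peptidergic nociceptor lists (0.81, 0.62) keep their sign.

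Level differences in the 5 male mice, which share no sample with the females but share the estimate of the spread, had the same sign for all 57 genes called in females (60% over all genes), and 37 of the 57 were called in males (0.648% over all genes). The medians were 1.27 for the rises and −1.30 for the falls, beside 1.21 and −1.04 in females. Chrna3 differed by 2.84, Chrnb4 by 2.29, Cartpt by 2.74, Negr1 by 1.78 and Nefh by −0.69 in males, all called. Esr1 differed by 2.15 (adjusted p = 0.00387), Tac1 by 1.27 (adjusted p = 1.81e-05) and Mbp by −1.39 (adjusted p = 0.00387). Called in females and not in males were Gabra3 (0.60, adjusted p = 0.391), Hoxc10 (0.70, adjusted p = 0.337), Aqp1 (0.42, adjusted p = 0.25) and 17 others, which does not show a difference between the sexes. In the test of that difference no gene was called (0%; 585 genes, or 4.62%, at an unadjusted p under 0.05), and among the 57 genes Atp5e, Gm7665 (called in females in 13 of 30 alternatives) and Tac1 had an unadjusted p under 0.05, with a smallest adjusted p of 0.973. Both batches of females entered that test, whereas all males were of batch 2; with the batch 2 samples alone, again no gene was called and 561 had an unadjusted p under 0.05.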

How the data were processed

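RNA-seq of DRG was analysed in 14 female samples (7 lumbar, 7 sacral), with 10 male samples in the same fits. According to the methods, RNA was extracted from the ganglia, amplified (NuGEN Ovation v2), tagmented (Nextera XT) and sequenced on a HiSeq2500. The submitters' processing notes name Subread 1.18 and 1.20.6, featureCounts, R 3.2.1 and 3.2.2, edgeR 3.12.1 and limma 3.26.9. Reads were aligned to mm9, unique alignments were kept and genes of Ensembl were counted; use of strand is not given in the sources used here. A subset of the adult samples was run at another facility, and the labels give this as an experimental batch. The deposited values are log2 RPKM (voom, TMM), from which the authors subtracted the batch difference. The columns with numeric names hold the same measure as the named columns, log2 RPKM after that subtraction. Because of the subtraction no count test was run. By the mouse numbers 8 females were used, whereas the methods give 7.

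The table lists 37620 genes, 26698 of them with a value; 37205 were named from GENCODE M1, whose mm9 coordinates (1-based, introns included) are given. Blank cells (28.7% of the female cells in those genes) were read as 0 reads and set to the log2 RPKM of 0.5 reads. Design had assumed the values as deposited, and this fill was decided after the blanks were seen. The effective library size came from the value of 1 read. Molecules were not tagged, so depth bounds counting error alone. P-values rest on the spread between samples, pooled over all groups. With 1 library per level and mouse, that spread does not separate differences between mice from those of dissection and library preparation.

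Models (limma 3.58.1, statmod 1.5.0, R 4.3.3) had a mean for each of the 4 groups and a batch term, mouse being a random block (correlation −0.017), and used eBayes with a trend; the batch contrasts used 6 level, sex and batch cells. Genes with a mean log2 RPKM of at least 0 in at least 1 group were tested (12655, of which 11165 protein coding). Tests are two-sided, intervals cover 95%, and the Benjamini-Hochberg threshold was 0.05. Scripts were tested on simulated data. Lumbar and sacral samples of 1 number were taken to come from the same animal, by the sample names alone. Their deviations from the group means correlated at −0.0214 to 0.067 over the 6 pairs, which does not settle the pairing. The block was kept as the design has it, and the fixed block is an alternative.

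Genes were named by this rule: the 10 largest rises and 10 largest falls among called genes seen in every sample of the higher group with the same sign in all pairs, called members of a list, the 5 called genes that differed most between batches, and 22 preset genes. Other genes were named after their values were seen: Scg2, Neto2, Cnr1, Aqp1, Accn2, Atp2b4, Qk, Cryab, Utrn, Mgat4a, Steap3, S100a11, Anxa5, Cyp1b1, Pcdh17, 6330403K07Rik, Arhgap19, Sema5a, Gm17035, AI593442, Kcnk3, Prrg3, those called within 1 batch only, Gm7665 and the list members that were not called. Lists were cell type markers, receptor subunits, neuropeptides, steroid genes, immediate early genes, Hox genes and the 10 sets curated for the study. The members and lists were chosen with earlier results of these data known. Some genes, members of the lists among them, are not reported here. Alternatives changed the block, samples, blanks, log scale, filter, scaling, variance model and covariates, and left out each female sample. Promoter sequences are those of RefSeq (GRCm38.p6), matched by symbol, cut at the start site. Figures and tables were made with Python 3.11.15, pandas 2.3.3, numpy 2.4.6, scipy 1.17.1 and matplotlib 3.10.9.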

Additional observations from a re-analysis of the deposited data

Results flagged for a closer look

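Over 136 groups of values checked for a sample that stood apart from its group, 6 were found, where chance alone gives about 1 in 20. Lumbar DRG of mouse 22 had a mean of 5.36 for the tested central glial genes (Slc1a2 and Aqp4), and the next lumbar sample had 1.15. Fabp4, the 1 adipocyte gene tested, was blank in lumbar DRG of mouse 23 (set to −5.67, the level of 0.5 reads; next −0.759) and low in sacral DRG of mouse 22 (−2.95, next 0.501). Gm20440 was low in lumbar DRG of mouse 19 (−1.33, next 0.77), and Hapln4 in sacral DRG of mouse 19 (0.201, next 1.91). Srd5a2 was high in lumbar DRG of mouse 12 (−2.99, next −5.62), the 1 lumbar sample with a read of that gene.

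The 16 tested calcium channel genes curated for the study were, in their mean level, higher in sacral in 4 of 4 pairs of batch 2 and in 0 of 2 pairs of batch 1. The mean pair difference was 0.142 in batch 2 and −0.275 in batch 1. This difference was not tested, and none of the 16 genes was called.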

How the results depend on the processing

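The female level difference gave 57 called genes, and no result reversed under any alternative that could be run. The count was 13 with mouse as a fixed replicate block, 26 with female samples only, 30 without a filter, 35 without an intensity trend, 135 with sample quality weights and 4 with the Schwann cell score; leaving out single samples gave 21 to 68. Without the replicate block it was 60, and the block changed no other count by over 1.5 times except that within batch 2, where it gave 7. For the difference between batches the count of 0 became 35 without a filter and 5 with weights (among them Hba-a1, Hba-a2, Hbb-b1 and Hbb-b2), and stayed 0 to 0 over single samples left out. Within batch 1, the 2 calls became 18 in a fit of batch 1 alone, 5 with log2(RPKM + 1), 82 without a filter, 4 with quantile normalisation, 0 without a trend, 122 with weights and 0 with the Schwann cell score, and 0 to 4 without single samples. Within batch 2, the 40 calls became 18 with female samples only, 20 in a fit of batch 2 alone, 13 without a filter, 10 without a trend, 8 with weights and 2 with the Schwann cell score, and 6 to 70 without single samples. Level by sex gave 0 calls, 1 with log2(RPKM + 1), and 0 to 0 without single samples. The causes were not tested. Sample weights were 1.447 to 3.219 in batch 1 and 0.555 to 1.286 in batch 2. Setting blanks under the lowest value of the batch, chosen after seeing the data, gave 60 calls. The share of rises among calls was 63.2%, 61.5 to 62.7% under the scaling alternatives, 76.9% with the fixed block, 76.7% without a filter, 77.1% without a trend, 55.6% with weights, 100% of the 4 calls with the Schwann cell score, and 53.3% (without sacral DRG of mouse 22) to 80.8% (without that of mouse 19) without single samples. Of the 57 genes, 48 were called in 15 or more of 30 alternatives. Batch 1 had 2 lumbar samples, which limits every value within it. Genes with no value or a mean below the filter, such as the 8 autonomic neuron markers, could not be tested.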
